A study of Mus musculus with 27 samples.

Results

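MHC class II genes encode and control the surface molecules with which macrophages, dendritic cells and B cells show peptides from engulfed material to CD4+ T cells. The 6 genes described here were chosen by name: H2-Aa and H2-Ab1, the alpha and beta chains of the class II molecule I-A, H2-Eb1, the beta chain of I-E, Cd74, the invariant chain that guards the peptide groove, H2-DMa, a chain of the peptide exchange factor H2-M, and Ciita, the coactivator that switches class II genes on. They were 6 of the 16038 genes with H3K27ac values and held 54 of the 70300 windows in which the mark was measured. The loci of these genes (the outermost windows plus 5 kb on each side) held 197 of the 228956 deposited binding sites of 3 other proteins.

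The study used ChIP-seq, in which DNA is pulled down with an antibody to a protein or histone mark and sequenced. The cells were Kupffer cells, macrophages that reside in the liver. They were sorted for high F4/80 and for surface Tim4 from C57BL/6J mice fed either a control diet or a NASH diet, which models the fatty and inflamed liver of non-alcoholic steatohepatitis. H3K27ac, a histone acetylation of active promoters and enhancers, was measured in 2 libraries per diet, and so were the sterol-sensing nuclear receptor LXR, the stress-induced factor ATF3 and the acetyltransferase P300. The age of the mice and the time on the diet of the H3K27ac libraries are not stated in the labels. Nothing states that replicate libraries stem from different animals. The p-values therefore measure only how far libraries differ, which may be technical.

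Class II genes are switched on through a shared promoter element close to the transcription start site (TSS), made of an X box bound by the RFX complex, an X2 box of the CRE type bound by CREB family proteins and a Y box bound by NF-Y. CIITA does not bind DNA itself but docks on these proteins and recruits acetyltransferases. In macrophages, interferon-gamma is the classical inducer of this switch.

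The promoters of H2-Aa and H2-Eb1 are shown because factor sites of the NASH diet lay on them and H3K27ac rose at both genes, and the promoter of H2-DMa is shown as one in which these letters were not found. Each is the stretch of 250 bases before a TSS, read 5′ to 3′ on the strand of the gene (RefSeq, build GRCm38.p6). Capitals mark the CRE (TGACGTCA), the Y box (CCAAT, or ATTGG where it lies on the other strand) and the X box spelling CTNGCAAC, which was chosen after the sequences had been seen.
H2-Aa, minus strand, chr17:34287824-34288073: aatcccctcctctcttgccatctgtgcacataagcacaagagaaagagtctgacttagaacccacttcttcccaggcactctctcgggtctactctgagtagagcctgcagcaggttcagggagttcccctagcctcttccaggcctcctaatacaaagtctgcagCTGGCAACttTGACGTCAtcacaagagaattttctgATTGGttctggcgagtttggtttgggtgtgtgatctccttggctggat
H2-Eb1, plus strand, chr17:34305617-34305866: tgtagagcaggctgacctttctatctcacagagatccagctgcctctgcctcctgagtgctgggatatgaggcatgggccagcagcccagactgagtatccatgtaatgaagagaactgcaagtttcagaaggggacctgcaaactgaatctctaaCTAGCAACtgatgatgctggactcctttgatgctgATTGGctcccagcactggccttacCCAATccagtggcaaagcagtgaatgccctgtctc
H2-DMa, plus strand, chr17:34122582-34122831: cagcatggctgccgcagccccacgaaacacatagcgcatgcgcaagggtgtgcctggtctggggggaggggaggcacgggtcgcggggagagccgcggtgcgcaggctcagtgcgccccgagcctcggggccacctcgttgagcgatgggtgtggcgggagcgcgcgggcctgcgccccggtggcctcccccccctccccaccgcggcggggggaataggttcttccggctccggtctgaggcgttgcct

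The H2-Aa promoter held the 3 elements in the order X, CRE and Y, beginning 84, 74 and 48 bases before the TSS. In H2-Eb1, CTAGCAAC began 94 bases before the TSS, followed by Y boxes at 59 and 35 bases. None of these letters occurred in the H2-DMa promoter shown, and a second annotated H2-DMa promoter, which is not shown, held a Y box. A search for exact letters cannot show that a promoter lacks the element. Among all 32851 promoters of this length, searched on both strands, 1.55% held the CRE, 33.8% the Y box and 2.84% CTNGCAAC. The looser X box spelling CCNNGNNAC, which 41.1% of promoters held, occurred elsewhere in the H2-Aa promoter and in the H2-DMa promoter shown. Other letters searched were those of AP-1 (TGANTCA, 6.75% of promoters), C/EBP-ATF (TGATGNAA, 3.45%), PU.1 (GAGGAAG, 10.6%), the LXR element DR4 (0.0213%) and the single repeat from which DR4 is built (AGGTCA, 14.0%). Of these, the single repeat occurred in the H2-Eb1 promoter and AP-1 in the second H2-DMa promoter.

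The comparison of the diets asked where the regulatory chromatin of Kupffer cells differed in NASH. H3K27ac rose with the NASH diet at all 3 chain genes of the class II molecules, with the largest change at H2-Eb1, followed by H2-Aa and H2-Ab1. The mark did not pass the test at the invariant chain gene Cd74 or at Ciita, and the value of H2-DMa was lower but did not pass either. Levels are normalised tags, which the authors scaled to 10000000 tags per library, summed over the windows of a gene. The libraries held 9468035 and 22615879 tags (control) and 18749728 and 19231109 tags (NASH), of which 7.91% to 9.60% fell in the windows, and a member window held 0 to 259 tags with a median of 15.

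H2-Eb1 had 165.82 and 187.47 normalised tags in the control libraries and 380.80 and 369.72 in the NASH libraries. Both NASH libraries lay above both control libraries, and the mean went from 176.6 ± 15.3 to 375.3 ± 7.83 (SD, with n = 2 libraries in each diet throughout). H2-Aa, the alpha chain gene of I-A, had 136.24 and 162.28 normalised tags on the control diet and 260.82 and 249.60 on the NASH diet. Its diets did not overlap, with means of 149.3 ± 18.4 and 255.2 ± 7.93. For H2-Ab1 the control libraries held 75.01 and 94.62 normalised tags and the NASH libraries 149.86 and 123.76. These groups did not overlap either, with means of 84.8 ± 13.9 and 136.8 ± 18.5, although the NASH libraries stood further apart than at the other chain genes.

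Each log2 change is the NASH mean minus the control mean of log2(value + 1), a scale that makes the changes of low values look smaller. The median change was −0.29 over all tested genes and −0.26 over all tested windows, and this median has been subtracted from the log2 changes printed here. The adjusted p-values belong to the change without the subtraction, which is smaller for a rise and larger for a fall. H2-Eb1 changed by 1.37 (SE 0.14, limma adjusted p = 3.66e-05), H2-Aa by 1.06 (SE 0.16, limma adjusted p = 0.00243) and H2-Ab1 by 0.97 (SE 0.20, limma adjusted p = 0.0271). These 3 of 6 members were called raised, against 2.89% of the 11593 genes tested, and 0 were called lowered, against 11.0%. By unadjusted p in limma 3 were higher and 1, H2-DMa, was lower, while edgeR called 4 raised and DESeq2 3, and both called 0 lowered. With TMM scaling, which sets the libraries to a common level so that the median gene changed by −0.01, limma called 4 raised (7.06% of all genes) and 0 lowered (6.18%). The H2-Ab1 call ended in limma without control library 1 (adjusted p = 0.169), without NASH library 1 (0.224) or without NASH library 2 (0.0763), and over all settings its adjusted p ran from 0.000386 to 0.224.

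**Figure D1:**
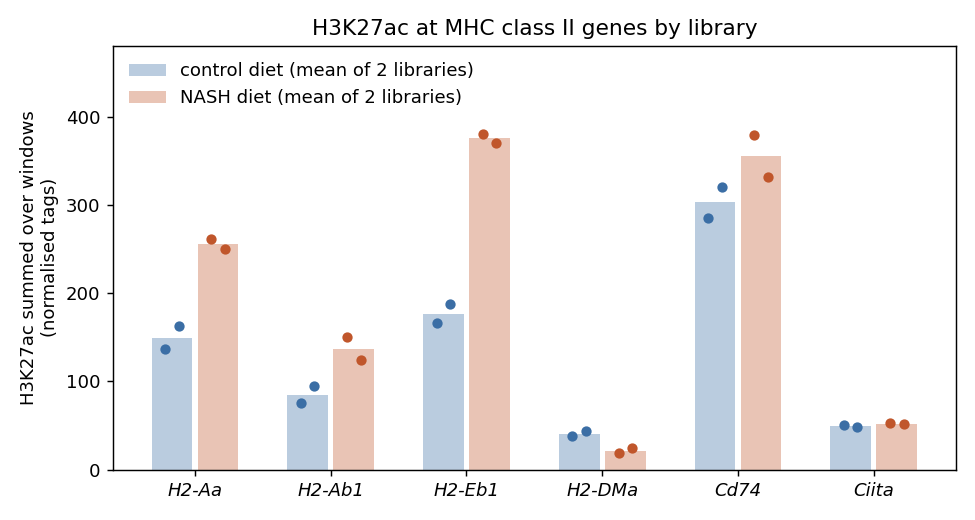
H3K27ac summed over the windows of each MHC class II gene, in normalised tags (vertical axis, from 0). Bars are the means of 2 libraries per diet and points the single libraries. At H2-Aa, H2-Ab1 and H2-Eb1 both NASH libraries lie above both control libraries, at H2-DMa both lie below, and at Ciita all 4 lie between 48.64 and 52.80.

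The other members differed among themselves. Cd74, which also serves as a receptor at the cell surface, had 285.19 and 320.56 normalised tags in the control libraries and 378.66 and 331.76 in the NASH libraries. The diets did not overlap, but NASH library 2 lay closer to control library 2 than to its own partner. Relative to the median gene the change was 0.51 (SE 0.14, limma adjusted p = 0.274). With TMM scaling Cd74 was called raised (limma adjusted p = 0.0228), and over all settings its adjusted p ran from 0.0228 to 0.693.

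H2-DMa had 38.02 and 43.34 normalised tags on the control diet and 18.66 and 24.44 on the NASH diet. Both NASH libraries lay below both control libraries, as they did for 46.0% of all genes tested, and the change was −0.61 (SE 0.31, limma adjusted p = 0.0626). Ciita had 50.71 and 48.64 normalised tags in the control libraries and 52.80 and 51.48 in the NASH libraries. The diets were close but did not overlap, and the change of 0.35 (SE 0.25) did not pass the test (limma adjusted p = 0.885).

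Compared per kilobase of window, so that genes with more or wider windows do not weigh more, the control level was highest at Cd74 (mean of 95.5 normalised tags per kb), then H2-Aa (77.0), H2-Eb1 (68.6), H2-DMa (64.6) and H2-Ab1 (54.3), and lowest at Ciita (24.1). The order on the NASH diet was H2-Eb1 (145.7), H2-Aa (131.7), Cd74 (112.0), H2-Ab1 (87.5), H2-DMa (34.2) and Ciita (25.3). In the control libraries each of H2-Aa, H2-Eb1, H2-DMa and H2-Ab1 overlapped with its neighbour in this order. On the NASH diet no neighbours overlapped.

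In single windows of about 200 bases, the rise at the chain genes was called inside the genes and, at H2-Eb1, also upstream, while the windows nearest the start sites did not pass. Of the 54 windows, 36 had enough tags to be tested, and 5 of these were called raised (limma adjusted p under 0.05, with a log2 change no smaller than 1 before the median is subtracted), against 2.00% of all 35947 windows tested. The number called lowered was 0, against 4.59%, while by unadjusted p 12 were higher and 3 lower. On the recovered tags edgeR called 8 member windows raised and DESeq2 5, both with 0 lowered, and limma with TMM scaling called 10 raised and 0 lowered, against 3.31% and 2.51% of all windows. The median change of the 36 tested windows was 0.71, and 30 of them lay above the median of all windows, although windows with low values in both diets were not among those tested. A window low in 1 diet could be kept through the libraries of the other diet, where it was high. The median and the count are therefore a description only. In 27 of the 54 windows both NASH libraries lay above both control libraries, in 7 they lay below and in 20 the diets overlapped. Over all windows the first 2 of these shares were 14.8% and 30.8%.

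Of the 5 called windows, 3 belonged to H2-Eb1. The window at −1446 bp from its TSS (chromosome 17, 34304311 to 34304531, intergenic) had 31.69 and 34.49 normalised tags on the control diet and 91.20 and 81.64 on the NASH diet. The window 737 bp downstream in intron 1 (34306502 to 34306707) had 25.35 and 28.30 against 83.20 and 74.36. The last of them, 1557 bp downstream in the same intron (34307324 to 34307524), had 8.45 and 11.94 against 29.33 and 40.04. In each of them both NASH libraries stood well apart from the control libraries. The changes were 1.62 (SE 0.24, limma adjusted p = 0.00291), 1.78 (SE 0.25, 0.00188) and 1.93 (SE 0.35, 0.00803). Between the first and the second lay the window at the TSS, 71 bp upstream, with 26.40 and 15.03 normalised tags on the control diet and 29.87 and 24.96 on the NASH diet. There the diets overlapped, and the change of 0.69 (SE 0.34) did not pass the test (limma adjusted p = 0.467).

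At H2-Aa the called window lay 1691 bp downstream of the TSS in intron 1 (chromosome 17, 34285980 to 34286180), with 4.22 and 8.40 normalised tags on the control diet and 21.33 and 26.52 on the NASH diet. The diets did not overlap, and the change was 2.08 (SE 0.42, limma adjusted p = 0.0142). The window with the highest level of any member window lay in the same intron, 503 bp downstream (34287123 to 34287414), with 60.20 and 95.07 against 138.14 and 123.24 normalised tags. It changed by 1.04 (SE 0.24), or 0.78 before the subtraction, and so passed neither the p (limma adjusted p = 0.0537) nor the size required. It was called with TMM scaling (0.0224; over all settings 0.000413 to 0.317). The window over the promoter, 150 bp upstream, had 12.67 and 14.59 normalised tags against 18.67 and 14.56. Here NASH library 2 lay below control library 2, and the change was 0.52 (SE 0.37, limma adjusted p = 0.715). A window in exon 3 held no tag in either control library and 4.27 and 3.12 normalised tags in the NASH libraries. With 0 tags seen, up to 3 are still possible, equal to 3.17 and 1.33 normalised tags in the control libraries, and the window was too low to test.

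At H2-Ab1 the called window lay 1660 bp downstream of the TSS over exon 2 (chromosome 17, 34264787 to 34264987), with 8.45 and 6.63 normalised tags on the control diet and 26.13 and 27.56 on the NASH diet. Both NASH libraries were far above both control libraries, and the change was 1.97 (SE 0.38, limma adjusted p = 0.0106). The highest H2-Ab1 window was the one at the TSS, 30 bp upstream, with 28.52 and 32.28 against 40.00 and 37.44 normalised tags. Those diets did not overlap, but the change of 0.60 (SE 0.28) did not pass (limma adjusted p = 0.486). Without NASH library 2 the limma call ended at H2-Aa 1691 bp downstream (adjusted p = 0.154), at H2-Ab1 1660 bp downstream (0.0949) and at H2-Eb1 1557 bp downstream (0.128). With TMM scaling the adjusted p of these 3 windows was 0.00722, 0.00360 and 0.00352, and over all settings the highest was 0.237.

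**Figure D2:**
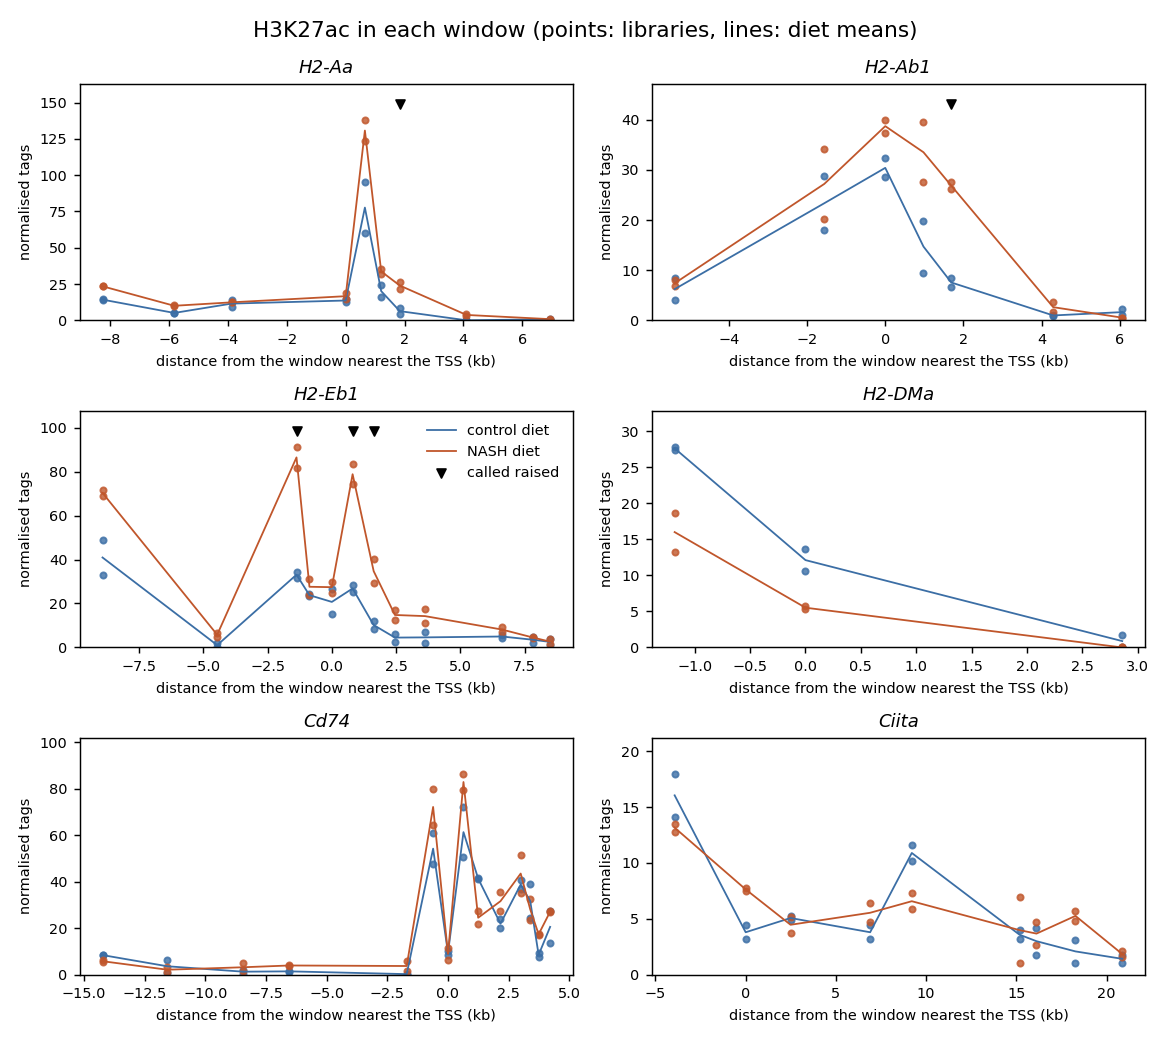
H3K27ac of every member window, in normalised tags, against the distance of the window from the one nearest the TSS, in kb and in the direction of transcription. Points are libraries, lines join the means of 2 libraries per diet, and triangles mark the 5 windows called raised. In H2-Eb1 the NASH line has a peak on each side of the window at the TSS, where the diets overlap.

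The windows of the other members did not pass the test in either direction. In Cd74 the highest window lay 504 bp downstream of the TSS in intron 1, with 50.70 and 72.07 normalised tags on the control diet and 86.40 and 79.56 on the NASH diet. The change was 0.71 (SE 0.24, limma adjusted p = 0.272), and the window 134 bp upstream, with 8.45 and 10.17 against 6.40 and 11.44, overlapped between the diets. Of the 14 Cd74 windows, NASH lay above control in 6 and below in 2 (14.8% and 30.8% of all windows). One of those below lay 1110 bp downstream in the same intron, with 41.19 and 41.56 normalised tags against 27.20 and 21.84, and was chosen here after its values had been seen.

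H2-DMa has more than 1 annotated start, and each distance is to the nearest one. Its highest window, 815 bp downstream of a TSS in intron 1, had 27.46 and 27.86 normalised tags on the control diet and 13.33 and 18.72 on the NASH diet. The window at −690 bp from another TSS had 10.56 and 13.71 against 5.33 and 5.72. Both lay lower on the NASH diet without overlap, as 38.1% of all tested windows did, and changed by −0.51 (SE 0.33) and −0.74 (SE 0.46), with limma adjusted p = 0.168 and 0.200. The remaining window, with 0 and 1.77 against 0 and 0 normalised tags, was too low to test.

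At Ciita, which also has several starts, the highest window lay at −3962 bp, with 17.96 and 14.15 normalised tags on the control diet and 12.80 and 13.52 on the NASH diet. Its change equalled that of the median window (−0.00, SE 0.38). The window 27 bp upstream of a TSS was lower but pointed the other way, with 3.17 and 4.42 against 7.47 and 7.80 normalised tags. NASH lay above control there, and the change of 1.12 (SE 0.52) did not pass the test (limma adjusted p = 0.339). Only 3 of the 9 Ciita windows held enough tags to be tested.

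**Figure D3:**
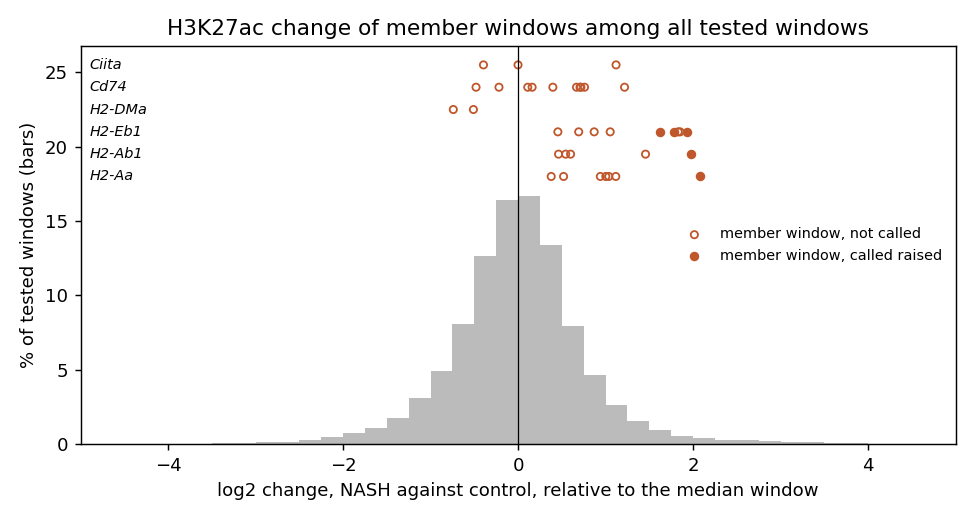
Change in H3K27ac of the 36 tested member windows (circles, in rows by gene, filled where called raised) above the share of all 35947 tested windows in each bin of change (bars, left axis). The horizontal axis is the log2 change, NASH against control, relative to the median window. The tested windows of H2-Aa, H2-Ab1 and H2-Eb1 all lie to the right of the median and the 2 of H2-DMa to the left.

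The windows come from ATAC-seq, which finds open chromatin, and are named for the list they were on: control, a list of 20 weeks on the diet, or both. Of the 54 member windows 38 were on both lists, 11 on the control list only and 5 on the list of 20 weeks only. Of the 5 windows called raised, 2 were on both lists, 2 (H2-Aa 1691 bp and H2-Ab1 1660 bp downstream) were on the control list only, and 1 (H2-Eb1 1557 bp downstream) was on the list of 20 weeks only.

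The 3 chain genes lie side by side on chromosome 17, and so H3K27ac was followed along the class II region. H2-Ea-ps, the remnant of the I-E alpha chain gene that C57BL/6 mice do not express, lies next to H2-Eb1 and had 53.87 and 45.54 normalised tags on the control diet and 97.06 and 78.52 on the NASH diet. The change was 1.09 (SE 0.23, limma adjusted p = 0.0264). On the other side of H2-Ab1, the class II gene H2-Ob, a chain of the inhibitor of peptide exchange H2-O, had 26.39 and 17.25 against 21.87 and 22.88 normalised tags, with overlap, and changed by 0.35 (SE 0.36). The called genes H2-Ab1, H2-Aa, H2-Eb1 and H2-Ea-ps thus stood next to each other, apart from H2-Eb2, which was too low to test. The next gene after H2-Ea-ps, Btnl2, a member of the butyrophilin family, had 62.32 and 64.99 against 41.60 and 39.52 and was not called (−0.35, SE 0.25, limma adjusted p = 0.0956). Beyond it Notch4, a Notch receptor gene best known from endothelium, had 15.84 and 10.17 against 68.80 and 83.72 normalised tags and was called raised (2.77, SE 0.32, limma adjusted p = 2.57e-05).

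**Figure D4:**
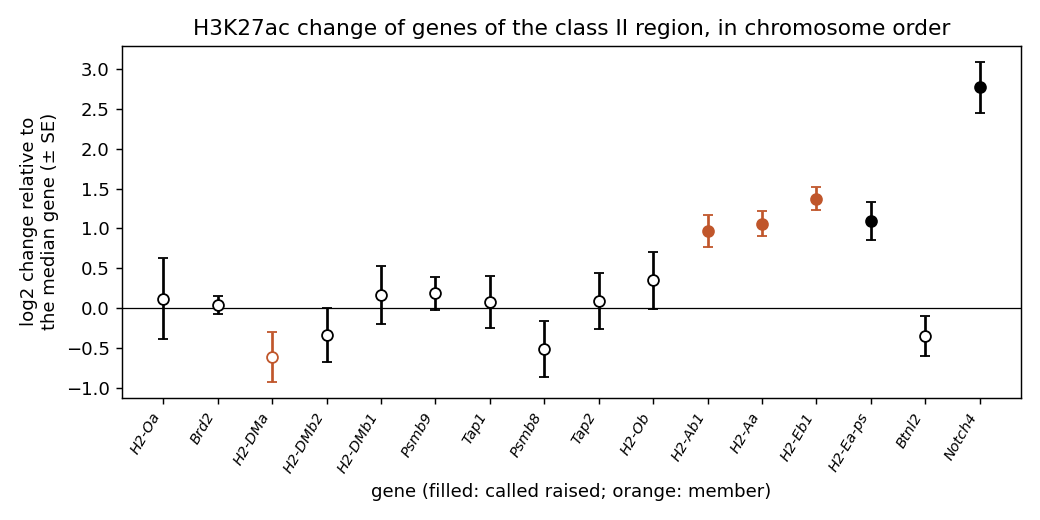
Log2 change in H3K27ac, NASH against control and relative to the median gene, for the genes of the class II region on chromosome 17 in their order (bars are ± SE of the limma fit; filled points were called raised; orange points are members). H2-Ab1, H2-Aa, H2-Eb1 and H2-Ea-ps lie between 0.97 and 1.37, while the genes from H2-Oa to H2-Ob lie between −0.61 and 0.35.

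The peptide loading genes at the other end of the region did not pass the test. H2-DMb2 and H2-DMb1, the beta chains of H2-M, changed by −0.34 (SE 0.34) and 0.16 (SE 0.36), and H2-Oa by 0.12 (SE 0.51). Between them and the chain genes, Psmb9 and Psmb8, subunits of the immunoproteasome, changed by 0.19 (SE 0.21) and −0.51 (SE 0.35). Tap1 and Tap2, which carry peptides into the endoplasmic reticulum for class I, changed by 0.08 (SE 0.33) and 0.09 (SE 0.35). Brd2, a reader of acetylated histones beside H2-DMa, changed by 0.04 (SE 0.11). Limma called none of these 8 genes, with or without TMM scaling.

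The list of antigen presentation and of neighbours in the class II region held 49 gene names other than the members. Some were alternative names of the same gene. Values were found under 46 names and 43 were tested. Of these 2 were called raised and 4 lowered, beside 2.89% and 11.0% of all genes tested. The raised ones were H2-Ea-ps and Notch4, and Notch4, like Brd2 and Btnl2, was listed as a neighbour, not for a part in presentation. The median change was 0.06, and with TMM scaling 4 were raised and 1 lowered (7.06% and 6.18% of all genes), so the split depends on the scaling. The list of class II and processing genes also held Cd1d1, which presents lipids and is not a class II gene. Of its 14 tested genes 3 were lowered: Ifi30, Cd1d1 and March8. Ifi30, the reductase that opens disulfide bonds of antigens, had 370.72 and 427.58 against 295.46 and 229.32 normalised tags (change −0.33). Cd1d1 had 105.61 and 117.18 against 54.39 and 58.24 (change −0.69). March8, a ubiquitin ligase of class II molecules, had 30.63 and 12.38 against 6.93 and 5.72 (change −1.21). In this order the limma adjusted p-values of the 3 were 0.00758, 0.00432 and 0.0386, and with TMM scaling only Cd1d1 was called. Ctss, the cathepsin that trims the invariant chain, had 58.09 and 60.13 against 62.40 and 58.76 and was not called (0.32, SE 0.24).

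Of the 11 tested genes that control class II transcription, 1 was called lowered, the interferon-induced factor Irf1 (310.51 and 252.50 against 201.58 and 179.92 normalised tags, change −0.27, limma adjusted p = 0.0211), and it was not called with TMM scaling. Rfx5, the DNA-binding subunit of RFX, had 33.80 and 55.71 against 60.80 and 54.60 normalised tags, with overlap between the diets. The NF-Y subunit genes Nfya and Nfyc, at 0.81 (SE 0.20) and 0.62 (SE 0.21), did not pass in the main test and were called raised with TMM scaling (limma adjusted p = 0.00249 and 0.0282). Both were called with edgeR too, and Nfya also with DESeq2 and with the replicate block, and over all settings the adjusted p ran up to 0.422 for Nfya and 0.666 for Nfyc. The lists of class I presentation (10 tested) and of co-stimulation (5 tested) held 0 called genes in either direction, also with TMM scaling.

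Across the 4 libraries, the gene sums most like the mean pattern of H2-Aa, H2-Ab1 and H2-Eb1, by the Euclidean distance of centred log2 values, were those of Ppcdc (0.0444), Dhrs2 (0.0584), Galm (0.0796), 4930529L06Rik (0.0887) and Fcgrt (0.0939). The median distance over all tested genes was 1.27, and among the members Cd74 lay at 0.62, Ciita at 0.81 and H2-DMa at 1.78. Galm, which acts in galactose metabolism, had 106.67 and 119.83 normalised tags on the control diet and 207.46 and 199.68 on the NASH diet. Dhrs2 and Fcgrt were not called (limma adjusted p = 0.135 and 0.346). Fcgrt had only 1 window, with low values of 3.17 and 3.98 against 6.93 and 6.76 normalised tags.

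Markers of Kupffer cells and of other liver cells were read from the same libraries. The sums given here are not corrected for the median change. The summed level of the Kupffer cell markers was 2028 to 2060 normalised tags on the control diet and 1098 to 1213 on the NASH diet. Of 9 tested, 6 were called lowered, against 11.0% of all genes tested, among them the sort marker gene Timd4 (256.65 and 255.57 against 21.31 and 26.00). Vsig4, Cd5l and C1qa were not called. Relative to the median gene, Cd5l changed by 0.20 and C1qa by −0.00. Dendritic cell markers summed to 231.7 to 260.9 against 147.2 to 162.7, with Ccr7 and Zbtb46 lowered among 4 tested. Zbtb46 was not called with TMM scaling (limma adjusted p = 0.0966, and up to 0.399 over all settings). Xcr1 was not called, and Clec9a overlapped between the diets (71.82 and 68.54 against 64.52 and 72.80). The defining gene Flt3 lay at 1.06 and 0 against 1.60 and 0.52. B cell markers summed to 158.7 to 177.4 against 88.0 to 90.5. Most of this difference came from Blk (89.78 and 76.05 against 13.86 and 14.56), the 1 gene lowered among 4 tested. Cd79b, Cd22 and Fcrla overlapped between the diets. Ms4a1 lay between 2.67 and 3.54 in all libraries, and Cd79a and Pax5 had no window. Markers of monocytes and recruited macrophages summed to 524.0 to 642.2 against 554.3 to 571.8. Of 6 tested, Itgax rose (19.02 and 17.25 against 83.20 and 73.84) and Plac8 fell (301.02 and 192.79 against 122.67 and 98.28), and with TMM scaling Ly6c2 and Cx3cr1 were called raised too. Of the T cell markers Cd3d was the 1 tested, and it rose from 3.17 and 3.54 to 12.27 and 21.84. Endothelial markers summed to 94.2 to 138.4 against 66.0 to 74.7, with Cdh5 and Stab2 lowered among 3 tested. Pecam1 overlapped between the diets (62.31 and 40.24 against 45.87 and 40.04). The part of other cells in the rise at the chain genes was not tested, and in these bulk libraries more cells with the mark and more mark per cell cannot be told apart.

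LXR, ATF3 and P300 had more reproducible sites at the class II loci on the NASH lists than on the control lists, as they did over the whole lists. Each list joins both libraries of a diet, so there is 1 list per group and no test. The header of the NASH lists for LXR and P300 carries another name than the ATAC-seq list, so the time on the diet may differ between assays. Over the 6 loci, counting each site once, LXR had 23 sites on the control list and 45 on the NASH list, ATF3 14 and 32, and P300 24 and 59. The NASH lists were longer as a whole: 51709 sites against 44463 for LXR, 38828 against 16109 for ATF3 and 52628 against 25219 for P300. Of the NASH sites at the loci, 24 of 45 for LXR, 19 of 32 for ATF3 and 36 of 59 for P300 overlapped no control site. Over the whole NASH lists these shares were 29.3%, 65.7% and 56.7%. The loci thus lay near the whole list for ATF3 and P300, and above it for LXR.

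H2-Eb1 had the largest increase in sites over the 3 factors together, with LXR going from 2 to 11, ATF3 from 1 to 6 and P300 from 1 to 12. This rank depends on sites that also lie in the overlapping H2-Aa locus and are counted for both genes. Without the shared sites the increase was larger at Cd74. On the windows of H2-Eb1 itself, LXR went from 1 window to 5, ATF3 from 0 to 4 and P300 from 1 to 6. At H2-Aa the site counts of the locus went from 2 to 8, 1 to 2 and 2 to 8. At H2-Ab1 they went from 3 to 5, 0 to 2 and 4 to 8. H2-DMa was the locus with the least difference, with 8 and 7 LXR sites, 3 and 6 ATF3 sites and 7 and 8 P300 sites, and 28 of its 39 sites lay on windows of the neighbour Brd2. Cd74 and Ciita also had more sites on the NASH lists, although their H3K27ac did not pass the test. Cd74 went from 3 to 8, 5 to 11 and 7 to 15, and Ciita from 6 to 11, 5 to 7 and 3 to 11. Many of the P300 sites of the NASH list at the Cd74 locus lay on windows of the neighbour Mir5107. On the windows of Cd74 itself, P300 sites lay on 6 windows on the control list and on 7 on the NASH list.

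**Figure D5:**
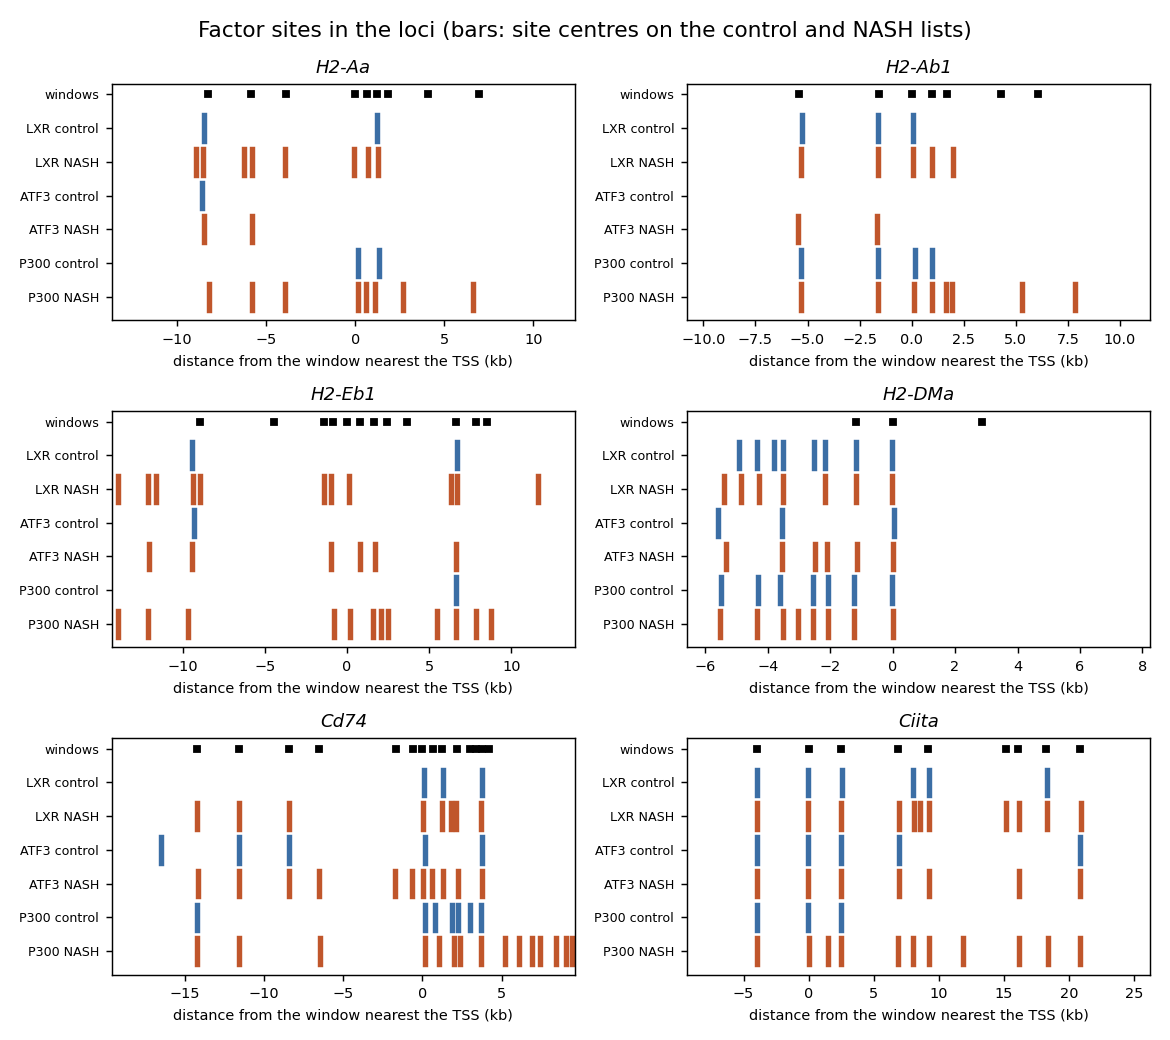
Positions of the LXR, ATF3 and P300 sites in each locus, in kb from the window nearest the TSS and in the direction of transcription. Bars are site centres on the control list (blue) and the NASH list (orange), and squares are the H3K27ac windows. At H2-Eb1 the control lists hold 1 or 2 sites per factor and the NASH lists 6 to 12, while at H2-DMa both diets have sites at much the same places.

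Counted over the windows themselves, which are the same for both diets, LXR sites lay on 16 of the 54 member windows on the control list (52.7% of all windows had one) and on 32 on the NASH list (57.7%). ATF3 sites lay on 10 and 28 windows (21.4% and 42.0% of all windows), and P300 sites on 18 and 34 (32.3% and 58.9%). LXR sites on the NASH list only lay on 17 member windows, which is 31.5%, against 12.5% of all windows. For ATF3 and P300 the numbers were 18 and 18, each 33.3%, against 24.2% and 29.1% of all windows. Sites on the control list only lay on 1 member window for LXR (7.53% of all windows), on 0 for ATF3 (3.58%) and on 2 for P300 (2.49%). More of the factors were present in NASH at 33 windows (42.3% of all windows), fewer at 1 (8.14%), and 11 windows had no site in either diet. All 3 factors lay together on 6 windows on the control lists and on 20 on the NASH lists (14.6% and 32.8% of all windows).

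The 5 windows with raised H3K27ac had no site of any of the factors on the control lists, which also held for 15 of the other 23 windows of the chain genes and for 41.9% of all windows. On the NASH lists, H2-Eb1 at −1446 bp had an LXR site, at 737 bp downstream an ATF3 site, and at 1557 bp downstream an ATF3 and a P300 site. The H2-Ab1 window 1660 bp downstream had a P300 site. The H2-Aa window 1691 bp downstream had no site of any factor on either list.

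On the promoters shown above, some of these letters lay inside NASH sites. The X, CRE and Y letters of H2-Aa all lay inside an LXR site of the NASH list (chromosome 17, 34287863 to 34288094), and the Y box also lay inside P300 sites of both lists. The control list had no LXR site there. In H2-Eb1, both Y boxes lay inside an LXR site of the NASH list (34305802 to 34306038), the one nearer the TSS also inside a P300 site of the NASH list, and CTAGCAAC lay in no site. The control lists had no site on that promoter. The H2-DMa promoter, in which these letters were not found, was covered by LXR and P300 sites on both lists and by an ATF3 site on the NASH list, and it overlaps a window of Brd2.

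The authors scored each LXR and P300 site for enrichment, and a score is read here only within its list. The LXR sites of the NASH list scored 32 at the H2-Aa promoter and 42 at the H2-Eb1 promoter, below the median of 44 of that list, and 66 at the H2-Ab1 window nearest the TSS, above it. The P300 sites of the NASH list there scored 103, 105 and 101, above the median of 47. Sites on the windows with raised H3K27ac scored below these medians. The LXR site at H2-Eb1 −1446 bp scored 31. The P300 sites scored 36 at H2-Eb1 1557 bp downstream and 39 at H2-Ab1 1660 bp downstream. ATF3 sites have only a reproducibility score, of 540 or more on the NASH list. It was 585 at H2-Eb1 737 bp downstream and 1000 at 1557 bp downstream. The Cd74 promoter had the highest P300 score of the member windows on the NASH list, 216, which ranked 335 of 52628 sites.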

How the data were processed

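The H3K27ac signal was deposited by the authors after HOMER had scaled each library to 10000000 tags (build mm10, per the file headers). The 70300 windows were merged ATAC-seq peaks, each assigned to a gene by HOMER. Bowtie2, HOMER and DESeq2 are named in the submitters' processing notes, without versions. For LXR, ATF3 and P300 the authors deposited 1 list per diet, with an IDR (reproducibility) score and, except for ATF3, an enrichment score per site, where LXR and P300 sites had passed an IDR of 0.05, per the file headers. For ATF3 no threshold is stated, and its unnamed score column was taken as the IDR score because of its position.

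Whole tags (tolerance 0.02) were recovered for 100% of the values from the library totals of the headers. The planned test on raw counts was replaced by limma-trend (limma 3.58.1, R 4.3.3) on log2(value + 1), since the values are normalised. Features were kept by filterByExpr of edgeR 4.0.16 on the recovered tags, and p-values were adjusted by the Benjamini-Hochberg method over all 35947 windows or 11593 gene sums. Gene sums were called at an adjusted p under 0.05, windows also at a log2 change of at least 1. The fit was tested on simulated data. TMM, edgeR, DESeq2 1.42.0, other pseudocounts (0.5 and 4), no filter, the replicate block, leaving out each library and sums within 1 kb of the TSS were alternatives, and for sites an IDR of at most 0.01, flanks of 0 and 20 kb and a 50% overlap in place of 1 bp. Floors cover counting error only.

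Members and lists were chosen with earlier results of these data known. Named were all members, of each the window nearest the TSS, the highest window and every called window, the called pathway genes (up to 4 per direction and group), the neighbours in the class II region and the 5 genes of most similar pattern. Member sequences from chromosome 18, where Cd74 lies, were left out by plan. Promoter sequences of 3 of the 6 members were matched by symbol in RefSeq. The labels do not state whether libraries of the same number were paired. The differences between libraries of the 2 diets had a correlation of 0.04 across windows. No shared deviation was thus seen, which does not settle the pairing. The 10 inputs and the 1 peritoneal macrophage library were not used here.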

Additional observations from a re-analysis of the deposited data

How the results depend on the processing

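Before the median is subtracted, the small change of Ciita turned negative with sums within 1 kb of the TSS. Relative to the median gene, the direction of every member gene was the same in all 13 settings, the main one included. H2-Eb1 was called raised in 12 of them, H2-Aa in 11 and H2-Ab1 in 8. With no filter on low values 0 genes and 0 windows passed anywhere in the table (lowest limma adjusted p = 0.0848 for genes and 0.237 for windows), so 0 members or pathway genes were called. With sums within 1 kb of the TSS 1 member gene, H2-Eb1, and 0 pathway genes in either direction were called, and H2-Aa and H2-Ab1 had limma adjusted p = 0.0674 and 0.156. Member windows called raised numbered 10 with TMM scaling, 8 with edgeR and 2 to 9 when a library was left out. When an arm was left with 1 library, it was assumed to vary like the other. Pathway genes called raised numbered 4 with TMM scaling and with edgeR, and 1 to 2 when a library was left out. Pathway genes called lowered numbered 0 with DESeq2, 1 with TMM scaling, 2 with edgeR, and 1 to 6 when a library was left out. The replicate block was fitted although no pairing of the libraries was seen. With the block 1 member gene was called lowered (H2-DMa, limma adjusted p = 0.0143), 8 member windows were raised and 10 pathway genes lowered. As before, 3 member genes were called raised. At an IDR of at most 0.01 ATF3 had 7 control sites in the loci, on 6 member windows, against 25 NASH sites on 23 windows. The sign turned for 2 windows near the median. The change at Cd74 −134 bp, 0.16 in the main setting, ran from −0.27 to 0.61 when a library was left out and was −0.04 without control library 1. The change at Ciita −3962 bp, −0.00 in the main setting, was 0.014 with DESeq2, 0.00092 with TMM scaling and 0.020 with edgeR, and it ran from −0.095 to 0.11 when a library was left out, with 0.09 without control library 1. Depth limits the low windows: 18 of the 54 were too low to test, 6 of them at Ciita.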
